A study of Mus musculus with 6 samples.

Results

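The cadherins and protocadherins are cell-surface proteins of 1 superfamily, and their genes were followed here in islets of *Akita* and wild-type (WT) mice. Members were the protein-coding genes whose symbol begins with Cdh and a digit or with Pcdh, apart from *Cdh5*, with raw counts that summed to at least 60 over the 6 libraries. Of 40914 genes with counts, 92 bore such a symbol and 67 reached the sum, of which 13 were cadherins and 54 protocadherins. The measured values that chose the members were therefore these count sums, taken over both genotypes, and the family was put forward because *Cdh8* was lower in *Akita*, so that the values of *Cdh8* are given as a description with no test. Just outside the threshold lay *Pcdha3* with 43 counts and *Pcdha12* with 58 counts, and just inside it *Pcdhb12* with 61 counts and *Cdh19* with 72 counts.

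*Akita* mice were heterozygous for the *Ins2* allele that replaces a cysteine of proinsulin 2 with tyrosine, an allele present in all their cells, on a C57BL/6J background, and were compared with WT mice of the same age, postnatal days 19 to 21. Of the *Akita* line males were chosen, whereas the sex of the WT mice used for sequencing is not given in the sources used here. Whole hand-picked islets were kept overnight in medium with 11.1 mmol/l glucose before RNA was taken, and they hold α-, δ- and PP-cells, vessels and adhering tissue beside β-cells. There were 3 *Akita* libraries, named AK4, AK5 and AK6, and 3 WT libraries, named WT1, WT2 and WT3, each from the pooled islets of 3 mice and from 120 ng of total RNA, so that p-values measure the spread between pools.

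Cadherins bind one another across the gap between neighbouring cells in a calcium-dependent way. Classical cadherins of type I and type II hold on to the actin skeleton through catenins, and in islets E-cadherin and N-cadherin join the endocrine cells. The clustered protocadherins are transcribed from α, β and γ gene clusters in tandem, each gene with a promoter and a first exon of its own, and are best known as surface labels by which neurons recognise their own branches.

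The libraries held 22069554 to 27043169 counts. Levels are given as CPM, the share of a library's counts on a fixed scale, with library sizes corrected by TMM factors (a trimmed mean of log ratios). The *Akita* over WT log2 fold change (LFC) and its standard error (SE) came from limma-voom on 15407 genes, with Benjamini-Hochberg adjustment and a threshold of 0.05 on the adjusted p. Over all genes tested, 1.62% passed, and the median LFC was -0.0011. The summed CPM of 7 β-cell markers lay between 130313 and 155357 in *Akita* pools, against 219904 to 242978 in WT pools, and 3 of the 7 passed the test as lower. The 3 PP-cell markers summed to 5789 to 8603 CPM in *Akita* pools, against 4407 to 5309 CPM in WT pools, without overlap. The 6 α-cell markers summed to 38863 to 60725 CPM in *Akita* pools, against 26911 to 41964 CPM in WT pools, and their mean stood at 146% of WT and that of the PP-cell markers at 144%. Of 54 genes tested from 10 other marker lists, these included, 0 passed limma-voom, with 12 at an unadjusted p under 0.05, where 18.7% of all genes were. Acinar, ductal and mesenchymal markers varied from pool to pool, as described beside the members that vary with them, and 4 haemoglobin genes summed to 8.97 to 23.3 CPM in *Akita* pools and 4.83 to 7.6 CPM in WT pools.

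*Cdh8* encodes a type II cadherin that is best known from synapses of the brain, and the table places it at chr8:99024471-99416471 on the minus strand of GRCm38. It was read at 22.4, 20.02 and 18.9 CPM in AK4, AK5 and AK6, against 49.2, 57.2 and 60.4 CPM in WT1, WT2 and WT3. All *Akita* pools lay below all WT pools, and the pools of a genotype lay close together. The means were 20.4 ± 1.81 CPM in *Akita* and 55.6 ± 5.76 CPM in WT islets (SD, n = 3 pools each), an LFC of -1.44 (SE 0.11). *Cdh8* in *Akita* thus stood at 36.8% of its WT mean, and the β-cell markers, which include the insulin genes, summed to 63.8% of theirs. At this age the paper found, by cell counts, a similar β-cell number per islet area and a similar β/α cell ratio in both genotypes. The part of β-cell number or β-cell RNA content in the level of *Cdh8* was not tested, and in bulk RNA fewer cells of a type and less RNA per cell cannot be told apart. The LFC ranged from -1.52 to -1.38 when each library was left out in turn.

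The promoter window of *Cdh8* is shown because this gene carried the widest gap between the pools of the 2 genotypes among the cadherins. It is the RefSeq window of GRCm38.p6, chr8:99416422-99416721 on the minus strand, from 250 bases before to 50 after the start of transcription, and its capitals mark the letters GGGCGG (the core of a GC box) and CCAAT, searched on both strands.
Cdh8: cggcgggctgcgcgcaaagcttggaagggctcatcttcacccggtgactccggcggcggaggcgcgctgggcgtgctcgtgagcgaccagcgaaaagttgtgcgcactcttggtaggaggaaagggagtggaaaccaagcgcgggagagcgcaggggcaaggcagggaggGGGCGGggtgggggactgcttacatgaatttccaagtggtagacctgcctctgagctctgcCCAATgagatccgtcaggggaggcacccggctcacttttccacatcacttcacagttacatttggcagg
The window held 21 CG dinucleotides, against a median of 7 over 32851 windows of the same length, and 24.8% of the windows held at least as many. GGGCGG was present in 35.7% of all windows and CCAAT in 37.4%. The E-box CAGGTG (20.2% of windows), the TATA box TATAAA (13.6%) and the homeodomain core TAATTA (5.29%) were also searched on both strands, and their letters were not in this window. The matches in this window do not overlap each other. Windows were found for 13 members, and a match of letters is a description of the sequence, not of a bound site.

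**Figure D1:**
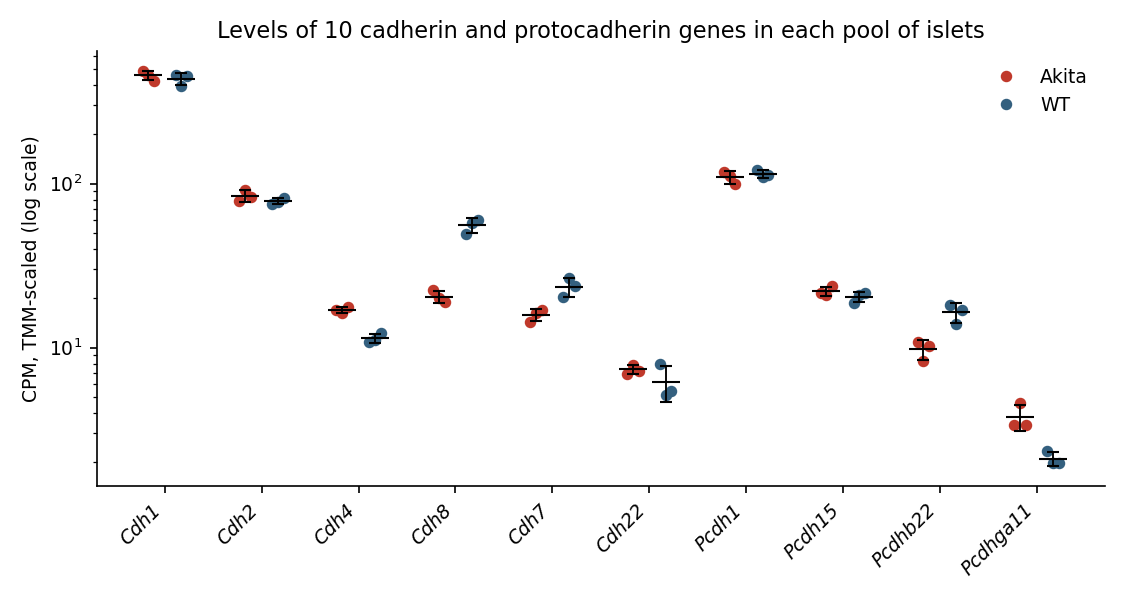
TMM-scaled CPM on a log axis of 10 members in each pool, with *Akita* (red) to the left of WT (blue); points are pools, horizontal bars the means and vertical bars the SD over 3 pools. *Cdh8* shows the widest gap, with 18.9 to 22.4 CPM in *Akita* and 49.2 to 60.4 CPM in WT pools, whereas the pools of *Cdh1*, *Cdh2* and *Pcdh1* overlap.

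The other 66 members all passed the filter on low counts, and by limma-voom 0 had an adjusted p under 0.05 in *Akita* over WT islets, as was also the case by limma-trend. At an unadjusted p under 0.05 there were 11, 6 higher and 5 lower in *Akita*, which is 16.7% of them, beside 18.7% of all genes tested. The pools of the genotypes did not overlap in 16 members (24.2%), against 25.3% of all genes. Of these, 8 were higher in every *Akita* pool, where 13.2% of all genes were, and 8 were lower in every *Akita* pool, where 12.2% of all genes were. These shares lie near those of all genes. The median LFC of the 66 was 0.04, with 36 above 0 and 30 below. With scaling by library totals alone, 44 lay above 0 and 22 below, and that scaling moved the median of all genes by 0.12.

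**Figure D2:**
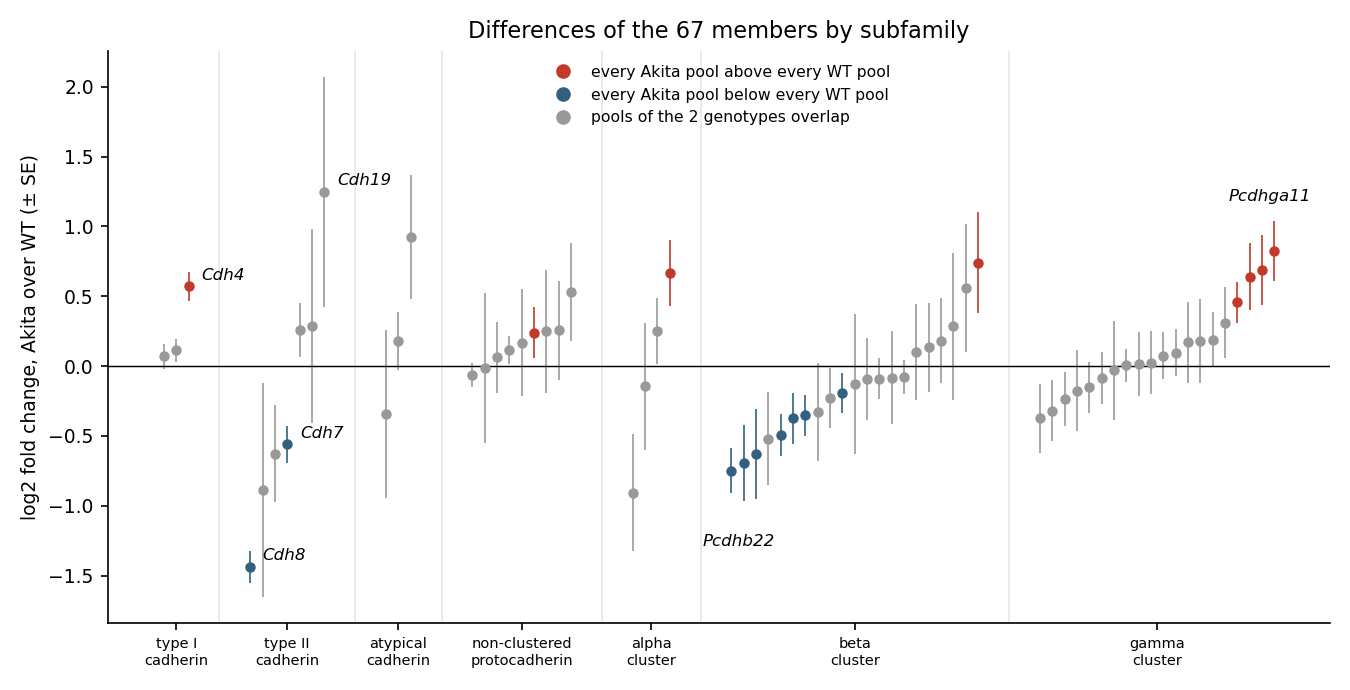
Log2 fold change of *Akita* over WT for the 67 members, ordered by value within each subfamily; points are estimates and bars are ± SE of limma-voom. Red and blue mark members whose 3 *Akita* pools lay all above or all below the 3 WT pools, and *Cdh8* lies lowest at -1.44 with an SE of 0.11.

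Of the type I cadherins, *Cdh1* and *Cdh2* stood at like levels in both genotypes and *Cdh4* was higher in each *Akita* pool. E-cadherin (*Cdh1*), the main adhesion molecule of epithelial junctions, was by far the most abundant member and held 48.9% of the summed CPM of all members. It was read at 489, 458 and 425 CPM in AK4, AK5 and AK6, against 461, 395 and 451 CPM in WT1, WT2 and WT3. The pools overlapped, and the LFC was 0.07 (SE 0.09, limma-voom with Benjamini-Hochberg adjustment, adjusted p = 0.723). N-cadherin (*Cdh2*), which joins neural, muscle and endocrine cells, had 78.1, 91.6 and 83.5 CPM in AK4, AK5 and AK6, against 74.96, 77.3 and 81.4 CPM in WT1, WT2 and WT3. Its LFC was 0.11 (SE 0.08, adjusted p = 0.510 by limma-voom), with overlap between AK4 and the WT pools.

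R-cadherin (*Cdh4*), first described in the retina, was read at 16.9, 16.2 and 17.6 CPM in AK4, AK5 and AK6, against 10.9, 11.2 and 12.2 CPM in WT1, WT2 and WT3. The pools did not overlap and the SD was 0.72 CPM in *Akita* and 0.71 CPM in WT. The LFC was 0.57 (SE 0.10), and the adjusted p of 0.0514 from limma-voom missed the threshold. *Cdh4* was picked out after its values were seen. It passed under 4 of the 14 other settings, among them scaling by library totals and weights per library, and under no setting that left out a library.

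The type II cadherins were the subfamily in which the summed level differed most in proportion between the genotypes, and most of that difference was *Cdh8* itself. The 7 members summed to 52.8, 48.7 and 50.3 CPM in AK4, AK5 and AK6, against 94.6, 92.4 and 94.1 CPM in WT1, WT2 and WT3. *Cdh8* made up 40.4% of this sum in *Akita* and 59.4% in WT islets. Without *Cdh8* the other 6 summed to 30.4, 28.7 and 31.4 CPM in AK4, AK5 and AK6, against 45.3, 35.2 and 33.7 CPM in WT1, WT2 and WT3. The groups stayed apart in that sum, with WT1 the highest through *Cdh11*. Of the 6 genes only *Cdh7* did not overlap between the genotypes, and 3 of the 6 LFCs lay above 0 and 3 below.

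*Cdh7*, a type II cadherin known from the nervous system, ran in the direction of *Cdh8*. It was read at 14.3, 16.3 and 17.0 CPM in AK4, AK5 and AK6, against 20.3, 26.5 and 23.8 CPM in WT1, WT2 and WT3. All *Akita* pools lay below all WT pools, with an LFC of -0.56 (SE 0.13), and the adjusted p of 0.0957 from limma-voom missed the threshold. *Cdh7*, too, was picked out after its values were seen. *Cdh22*, a type II cadherin of brain and pituitary, overlapped between the genotypes, at 7.36 ± 0.48 CPM in *Akita* and 6.18 ± 1.53 CPM in WT (SD, n = 3 pools each). *Cdh24*, a type II cadherin that binds catenins, stood at 0.69 ± 0.31 CPM in *Akita* and 1.02 ± 0.08 CPM in WT (SD, n = 3 pools each), also with overlap.

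The first of the 3 RefSeq promoter windows of *Cdh7* is shown for comparison with that of *Cdh8*, since these were the type II cadherins with no overlap between pools. It is chr1:109982650-109982949 on the plus strand of GRCm38.p6, and its capitals mark CCAAT (here as ATTGG on the other strand) and CAGGTG.
Cdh7: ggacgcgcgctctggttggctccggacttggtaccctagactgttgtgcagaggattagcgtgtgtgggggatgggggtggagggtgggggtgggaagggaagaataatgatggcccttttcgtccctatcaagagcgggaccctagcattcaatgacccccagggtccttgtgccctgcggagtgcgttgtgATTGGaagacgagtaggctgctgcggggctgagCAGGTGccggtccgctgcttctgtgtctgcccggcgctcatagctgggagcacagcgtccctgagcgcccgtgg
It held 18 CG dinucleotides and shared CCAAT with the *Cdh8* window, whereas CAGGTG was in all 3 *Cdh7* windows and GGGCGG in none of them. CCAAT was in the next *Cdh7* window but not in the last, which held 4 CG dinucleotides. Among other members CCAAT was in the windows of *Pcdh8*, *Pcdh9*, *Pcdh15*, *Pcdh17*, *Pcdh18* and *Pcdh19*. It was absent from those of *Cdh6*, *Cdh22*, *Cdh23*, *Cdh24* and *Pcdh7*.

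*Cdh11*, *Cdh6* and *Pcdh7* varied widely between the WT pools. *Cdh11*, the OB-cadherin of mesenchymal cells and osteoblasts, was read at 5.75, 3.23 and 5.62 CPM in AK4, AK5 and AK6, against 12.6, 1.90 and 2.03 CPM in WT1, WT2 and WT3. *Cdh6*, the K-cadherin of the kidney, had 1.37, 0.33 and 0.56 CPM in AK4, AK5 and AK6, against 3.15, 0.62 and 0.77 CPM in WT1, WT2 and WT3. *Pcdh7*, a non-clustered protocadherin, had 0.80, 0.51 and 0.92 CPM in AK4, AK5 and AK6, against 1.57, 0.41 and 0.53 CPM in WT1, WT2 and WT3. All 3 genes were highest in WT1. *Cdh11* was higher in every *Akita* pool than in WT2 and WT3, whereas *Cdh6* and *Pcdh7* overlapped between the *Akita* pools and those 2 WT pools. The 8 mesenchymal markers, all detected, summed to 304, 169 and 198 CPM in AK4, AK5 and AK6, against 587, 62.8 and 104 CPM in WT1, WT2 and WT3, and the 6 ductal markers to 1274 CPM in WT1 and 462 to 728 CPM in the other pools. The part of such cells in these genes was not tested. Leaving out each library in turn, the LFC of *Cdh11* ranged from -0.23 without WT2 to 1.25 without WT1, that of *Pcdh7* from -0.41 without WT2 to 0.59 without WT1, and that of *Cdh6* from -1.44 without AK4 to -0.12 without WT1.

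**Figure D3:**
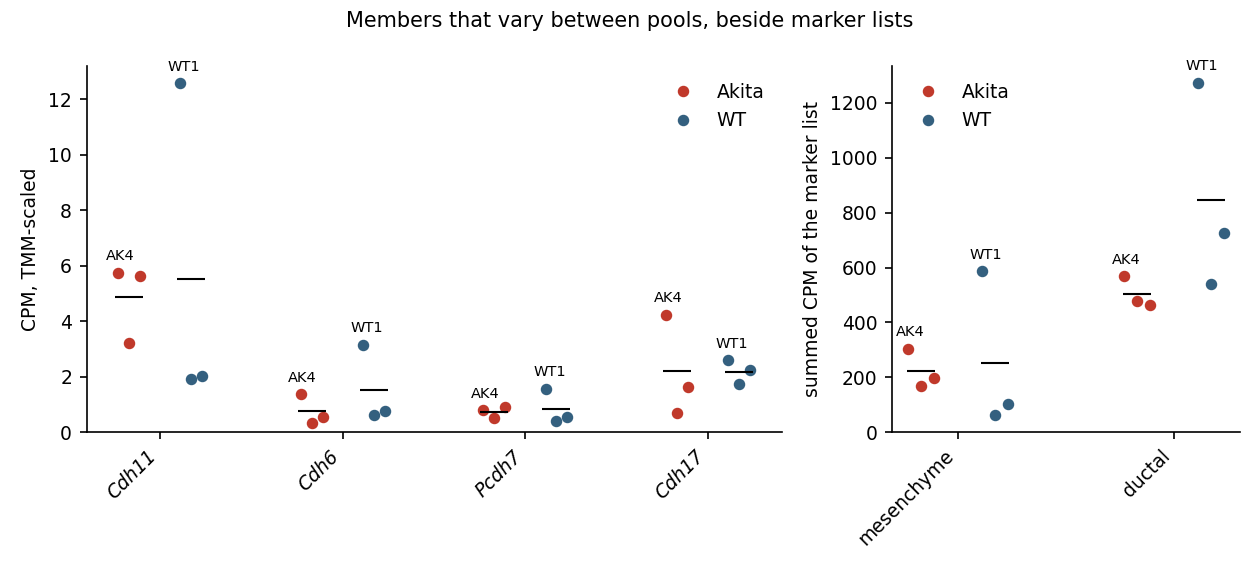
TMM-scaled CPM of *Cdh11*, *Cdh6*, *Pcdh7* and *Cdh17* (left) and summed CPM of the mesenchymal and ductal marker lists (right) in each pool, *Akita* red and left, WT blue and right; points are pools and bars are means. WT1 is the highest pool for *Cdh11*, *Cdh6* and *Pcdh7* and for both marker lists, and AK4 the highest for *Cdh17*.

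*Cdh19*, a type II cadherin of glial and Schwann cell precursors, had the highest LFC of any member and the fewest counts of the cadherins. It was read at 0.98, 0.37 and 0.48 CPM in AK4, AK5 and AK6, against 0.41, 0.04 and 0.53 CPM in WT1, WT2 and WT3. The pools overlapped, and the LFC of 1.25 had an SE of 0.82 (limma-voom, adjusted p = 0.468). Without a library in turn it ranged from 0.25 to 1.79. The 6 Schwann and neural markers summed to 61.3 to 71.4 CPM in *Akita* pools, against 44.5 to 59.2 CPM in WT pools, and the part of such cells was not tested.

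The atypical cadherins, which lack the catenin-binding tail of the classical ones, were read at low levels in both genotypes. T-cadherin (*Cdh13*), which is anchored by a lipid and binds adiponectin, stood at 4.45 ± 0.78 CPM in *Akita* and 3.95 ± 0.57 CPM in WT (SD, n = 3 pools each). *Cdh23*, which forms the tip links of inner-ear hair cells together with *Pcdh15*, had 1.81, 2.93 and 1.67 CPM in AK4, AK5 and AK6, against 0.60, 1.20 and 1.94 CPM in WT1, WT2 and WT3. The pools overlapped through WT3, and its LFC was 0.92 (SE 0.44, limma-voom adjusted p = 0.323). LI-cadherin (*Cdh17*), known from intestine and ducts, had 4.23, 0.70 and 1.63 CPM in AK4, AK5 and AK6, against 2.58, 1.74 and 2.23 CPM in WT1, WT2 and WT3. The 9 acinar markers, all detected, summed to 5139, 123 and 832 CPM in AK4, AK5 and AK6, against 4087, 155 and 4149 CPM in WT1, WT2 and WT3. In each genotype the pool with the fewest acinar transcripts also had the least *Cdh17*, and the part of exocrine tissue was not tested. The LFC of *Cdh17* was -0.34 (SE 0.60) and turned to 0.30 without AK5.

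The 9 non-clustered protocadherins, which stand alone in the genome, overlapped between the genotypes in all but 1 case. Their sum was 149, 142 and 133 CPM in AK4, AK5 and AK6, against 150, 139 and 142 CPM in WT1, WT2 and WT3. *Pcdh1*, an adhesion molecule of airway and other epithelia, held most of it, at 117, 111 and 99.2 CPM in AK4, AK5 and AK6, against 121, 109 and 113 CPM in WT1, WT2 and WT3. Its pools overlapped, with an LFC of -0.07 (SE 0.09, limma-voom adjusted p = 0.739) that turned to 0.05 with scaling by library totals. *Pcdh15*, the tip-link partner of *Cdh23*, was read at 21.5, 20.9 and 23.7 CPM in AK4, AK5 and AK6, against 18.7, 20.9 and 21.7 CPM in WT1, WT2 and WT3, with an LFC of 0.11. The exception was *Pcdh17*, which guides axons and synapses, at 2.82 ± 0.15 CPM in *Akita* and 2.39 ± 0.22 CPM in WT (SD, n = 3 pools each), with an adjusted p of 0.538 by limma-voom. *Pcdh12* of endothelial cells stood at 2.0 ± 0.74 CPM in *Akita* and 1.74 ± 0.56 CPM in WT (SD, n = 3 pools each). The other members of this subfamily, *Pcdh18*, *Pcdh19*, *Pcdh8* and *Pcdh9*, lay between 0.428 and 1.67 CPM in the mean of either genotype.

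The clustered protocadherins made up 45 members, 4 of the α, 21 of the β and 20 of the γ cluster, all on chromosome 18. Genes of the α and γ clusters splice their own first exon to exons that the whole cluster shares. Of the exon bases of a member, 48.6% to 53.5% in the α and 31.5% to 73.6% in the γ cluster were shared with another gene in the GENCODE annotation, and the median was 0 in the β cluster. How reads in shared exons were assigned is not given in the sources used here, and reads of such similar genes can be split or dropped, so that values of single clustered genes are uncertain. *Pcdhga10*, with all exon bases shared, and *Pcdha4*, with 93.0% shared, had 0 counts in every library and were no members.

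In the β cluster 15 of 21 genes lay below 0 with TMM scaling, all 10 from *Pcdhb13* to *Pcdhb22* and 5 among the 11 genes before them. Its 21 members summed to 64.3, 58.7 and 64.4 CPM in AK4, AK5 and AK6, against 79.4, 74.5 and 79.7 CPM in WT1, WT2 and WT3. The sum was lower in every *Akita* pool. By limma-voom 0 members passed and 4 had an unadjusted p under 0.05, which is 19% of the cluster beside 18.7% of all genes in either direction. All 4 were lower, where 1368 of the 15407 genes tested were lower at that p. The median LFC was -0.13. In 7 members every *Akita* pool was lower, where 12.2% of all genes were, and in 1 member every *Akita* pool was higher, where 13.2% of all genes were. In the order of their starts, the 10 genes from *Pcdhb13* to *Pcdhb22* all lay below 0, from -0.75 to -0.08, with a median of -0.36, and 6 of them did not overlap between genotypes. Of the 11 genes from *Pcdhb1* to *Pcdhb12*, 6 lay above 0 and 5 below, and their median was 0.10. *Pcdhb11* and *Pcdhb12*, next to *Pcdhb13*, also lay below 0 (LFC -0.09 and -0.13), so the sign did not change at *Pcdhb13*. The stretch from *Pcdhb13* on was marked off after its values were seen and was not tested. With scaling by library totals alone, 8 of the 10 lay below 0, and *Pcdhb16* and *Pcdhb17* turned to above 0. Of the 11 genes before them, 3 lay below 0 and 8 above with that scaling, so the lean of the whole cluster depended on the scaling.

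The 10 genes from *Pcdhb13* on held most of the β transcripts, at 54.3, 50.2 and 54.8 CPM in AK4, AK5 and AK6, against 71.4, 66.2 and 68.9 CPM in WT1, WT2 and WT3. *Pcdhb22*, the last of them, was read at 10.8, 8.25 and 10.3 CPM in AK4, AK5 and AK6, against 18.3, 14.0 and 17.0 CPM in WT1, WT2 and WT3. All its *Akita* pools lay below all WT pools, with an LFC of -0.75 (SE 0.16), and the limma-voom adjusted p of 0.0739 missed the threshold. It passed under 2 of the 14 other settings, weights per library (adjusted p = 0.0497) and an acinar score as a covariate (adjusted p = 0.0429), both by limma-voom. It passed under no setting that left out a library (adjusted p from 0.0639 to 0.224 by limma-voom). *Pcdhb21* had 1.63, 1.54 and 2.47 CPM in AK4, AK5 and AK6, against 3.71, 2.60 and 2.62 CPM in WT1, WT2 and WT3, without overlap (LFC -0.69, SE 0.27, adjusted p = 0.238 by limma-voom). *Pcdhb20* stood at 5.98 ± 0.77 CPM in *Akita* and 8.35 ± 0.48 CPM in WT (SD, n = 3 pools each), also without overlap. *Pcdhb17*, the β gene with the highest level per kilobase, overlapped at 9.97 ± 0.82 CPM in *Akita* and 10.5 ± 0.53 CPM in WT (SD, n = 3 pools each).

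At the near end, *Pcdhb1* was the β gene that was higher in every *Akita* pool. It was read at 0.54, 1.03 and 0.64 CPM in AK4, AK5 and AK6, against 0.49, 0.37 and 0.39 CPM in WT1, WT2 and WT3. Its LFC was 0.74 (SE 0.36, limma-voom adjusted p = 0.330), from 89 counts in all libraries together. *Pcdhb4*, a few genes on, ran the other way, at 0.51 ± 0.10 CPM in *Akita* and 0.81 ± 0.19 CPM in WT (SD, n = 3 pools each) without overlap. The roles of single β protocadherins are not well told apart, and they are described here by position.

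**Figure D4:**
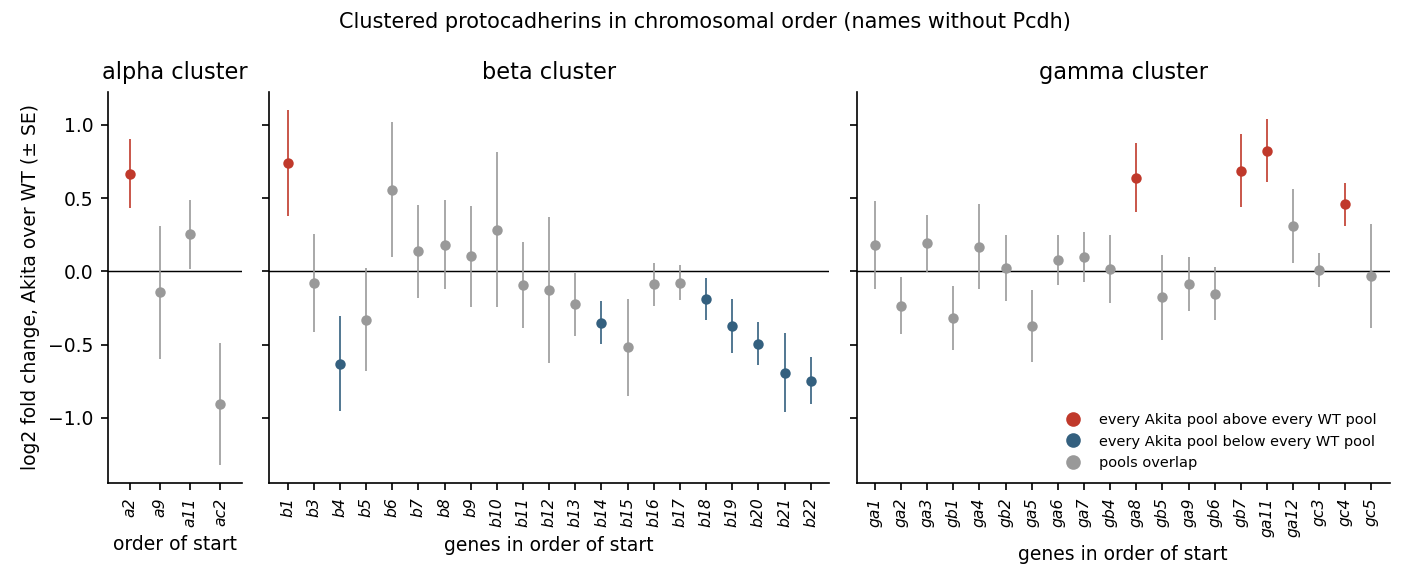
Log2 fold change of *Akita* over WT (± SE, limma-voom) for the 45 members of the α, β and γ clusters in the order of their starts; red and blue mark members with no overlap between the 3 *Akita* and 3 WT pools. The 10 genes from b13 to b22 all lie below 0, with a median of -0.36, whereas the 4 marked genes of the γ cluster lie above 0.

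In the γ cluster the shares of genes at an unadjusted p under 0.05, and of genes without overlap, lay near those of all genes. The 20 members summed to 77.4, 74.4 and 78.3 CPM in AK4, AK5 and AK6, against 67.9, 74.4 and 72.4 CPM in WT1, WT2 and WT3, with AK5 at the level of WT2. By limma-voom 0 passed and 4 had an unadjusted p under 0.05, which is 20% of the cluster beside 18.7% of all genes in either direction. All 4 were higher, where 1511 of the 15407 genes tested were higher at that p. In this cluster the median LFC was 0.05 (13 above 0 and 7 below). The pools did not overlap in 4 members, again 20% and beside 25.3% of all genes in either direction. These 4 were higher in every *Akita* pool, where 13.2% of all genes were. *Pcdhga11* was read at 3.40, 4.58 and 3.39 CPM in AK4, AK5 and AK6, against 2.36, 1.98 and 1.98 CPM in WT1, WT2 and WT3. Its LFC was 0.82 (SE 0.22, limma-voom adjusted p = 0.113), and 73.6% of its exon bases were shared. *Pcdhgb7* had 3.00, 4.51 and 3.78 CPM in AK4, AK5 and AK6, against 2.77, 1.82 and 2.37 CPM in WT1, WT2 and WT3, an LFC of 0.69 (SE 0.25, limma-voom adjusted p = 0.214). *Pcdhgc4*, to which the table gives the symbol of *Pcdhga8* and GENCODE its own, stood at 8.37 ± 0.72 CPM in *Akita* and 6.12 ± 0.71 CPM in WT (SD, n = 3 pools each). *Pcdhga8* itself stood at 2.89 ± 0.35 CPM in *Akita* and 1.85 ± 0.43 CPM in WT (SD, n = 3 pools each). None of the 4 overlapped between genotypes. Of their exon bases 61.3% were shared in *Pcdhgb7*, 55.9% in *Pcdhga8* and 37.9% in *Pcdhgc4*, where the median of the cluster was 45.2%.

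Other γ genes at like or higher levels overlapped. *Pcdhgc3*, a gene of the C type at the end of the cluster, was read at 8.28, 9.28 and 8.88 CPM in AK4, AK5 and AK6, against 8.91, 8.92 and 8.38 CPM in WT1, WT2 and WT3, and its LFC of 0.01 (SE 0.12) changed sign under 3 of the alternatives. *Pcdhga5* stood at 5.64 ± 1.71 CPM in *Akita* and 7.21 ± 1.10 CPM in WT (SD, n = 3 pools each), *Pcdhga6* at 6.88 ± 0.92 CPM in *Akita* and 6.48 ± 0.93 CPM in WT, and *Pcdhga7* at 5.94 ± 0.32 CPM in *Akita* and 5.59 ± 0.996 CPM in WT. The remaining γ members had LFCs from -0.32 to 0.31.

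The α cluster was the most weakly read, with 4 of its genes above the threshold of 60 counts. Their sum was 4.23, 4.58 and 4.62 CPM in AK4, AK5 and AK6, against 3.11, 4.21 and 4.55 CPM in WT1, WT2 and WT3. *Pcdha2* had 1.63, 1.83 and 1.91 CPM in AK4, AK5 and AK6, against 1.01, 1.03 and 1.36 CPM in WT1, WT2 and WT3, an LFC of 0.67 (SE 0.24, limma-voom adjusted p = 0.197) without overlap. *Pcdhac2*, a C-type gene like *Pcdhgc3*, had 0.29, 0.22 and 0.60 CPM in AK4, AK5 and AK6, against 0.56, 0.62 and 0.77 CPM in WT1, WT2 and WT3. AK6 reached the WT range, and its LFC was -0.91 (SE 0.42, limma-voom adjusted p = 0.306), from 75 counts. *Pcdha9* and *Pcdha11* overlapped.

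Levels of different genes were compared per kilobase of the exon bases that a gene does not share. *Cdh1* led with a mean of 97.6 CPM per kilobase over all pools, followed by *Pcdh1* with 12.7 and *Cdh2* with 10.1 CPM per kilobase. *Cdh8* came next with 4.93 and *Pcdhgc3* with 4.82 CPM per kilobase, and the place of *Cdh8* depended on the genotype. *Cdh8* stood at 2.65 ± 0.23 CPM per kilobase in *Akita* and 7.21 ± 0.75 CPM per kilobase in WT, and *Pcdhgc3* at 4.84 ± 0.28 CPM per kilobase in *Akita* and 4.80 ± 0.17 CPM per kilobase in WT (SD, n = 3 pools each). In *Akita* islets *Cdh8* lay within the spread of *Pcdhga6*, which had 2.63 ± 0.35 CPM per kilobase. The next places by the mean over all pools went to *Pcdhga6*, *Pcdhga5*, *Pcdhga11*, *Pcdhga7* and *Pcdhb17*, with 2.19 to 2.56 CPM per kilobase, and their order also depended on the genotype. *Pcdhga11* stood at 3.02 ± 0.55 CPM per kilobase in *Akita*, the next after *Pcdhgc3* there, and at 1.68 ± 0.17 CPM per kilobase in WT (SD, n = 3 pools each). *Pcdhb22* stood at 1.59 ± 0.22 CPM per kilobase in *Akita* and at 2.67 ± 0.36 CPM per kilobase in WT (SD, n = 3 pools each), where its mean exceeded that of *Pcdhga6* by less than the SD of either gene. When all exon bases were used as the length, the first 4 places stayed and *Pcdhb17* rose to place 5. *Pcdhgc3* fell to place 11, *Pcdhga6* to 12, *Pcdhga5* to 13, *Pcdhga7* to 16 and *Pcdhga11* to 25. The places of these γ genes thus depended on the length used. Outside *Cdh1*, *Cdh8* made up 4.58% of the summed CPM of the members in *Akita* and 11.4% in WT islets.

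Genes that act with the members were read from lists of other cadherin-like proteins, catenins and plaque proteins, sheddases, repressors of E-cadherin and regulators of the protocadherin clusters. Of 81 genes listed 64 were tested, and 1 was higher and 2 were lower in *Akita* by limma-voom, where 1.62% of all genes passed. *Celsr2*, a seven-pass cadherin of planar cell polarity and the one of 14 other cadherin-like genes that passed, rose to 36.8, 30.2 and 34.3 CPM in AK4, AK5 and AK6, against 16.7, 16.4 and 15.8 CPM in WT1, WT2 and WT3. Its LFC was 1.04 (SE 0.11, adjusted p = 0.0140 by limma-voom), without overlap. Among 16 catenins and plaque proteins, αN-catenin (*Ctnna2*), which links cadherins of neurons to actin, fell to 7.16, 7.99 and 9.12 CPM in AK4, AK5 and AK6, against 17.7, 20.2 and 17.1 CPM in WT1, WT2 and WT3. Its LFC was -1.19 (SE 0.14, adjusted p = 0.0146 by limma-voom). Desmoplakin (*Dsp*), which ties desmosomes to keratin filaments, fell to 126, 119 and 101 CPM in AK4, AK5 and AK6, against 195, 191 and 168 CPM in WT1, WT2 and WT3, an LFC of -0.68 (SE 0.10, adjusted p = 0.0362 by limma-voom).

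The lists' medians were -0.14 for the other cadherin-like genes, -0.06 for catenins and plaque proteins, -0.07 for 14 sheddases and γ-secretase subunits, 0.08 for 7 repressors of E-cadherin and -0.02 for 13 cluster regulators, such as *Ctcf* and the cohesin subunits. In the last 3 lists 0 genes passed limma-voom, with lowest adjusted p-values of 0.0825, 0.400 and 0.328. An unadjusted p under 0.05 was found for 4 of 14 other cadherin-like genes (28.6%), 6 of 16 catenins and plaque proteins (37.5%), 2 of 14 sheddases and γ-secretase subunits (14.3%), 0 of 7 repressors and 0 of 13 cluster regulators, beside 18.7% of all genes. β-catenin (*Ctnnb1*), which binds the tail of classical cadherins, had an LFC of -0.01 and an adjusted p of 0.929 in the same fit. The 3 calls were each lost in several of the fits that left out 1 library, in which the sizes of the differences stayed close to those above. By limma-voom *Celsr2* lost its call without WT2, WT3 or AK6 (adjusted p = 0.0715, 0.0773 and 0.0777). *Ctnna2* lost its call without WT1, WT2, WT3, AK5 or AK6 (adjusted p from 0.0511 to 0.0773), and *Dsp* without the same libraries (adjusted p from 0.0979 to 0.162) and with library totals alone (adjusted p = 0.0594). In the fits without 1 library the LFC ranged from 0.981 to 1.121 for *Celsr2*, from -1.27 to -1.10 for *Ctnna2* and from -0.75 to -0.59 for *Dsp*. Over all genes the calls numbered 249 with all libraries, 64 without WT1, 7 without WT2, 1 without WT3, 584 without AK4, 49 without AK5 and 0 without AK6.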

How the data were processed

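Whole-islet RNA of 3 *Akita* and 3 WT pools was sequenced. Per the submitters' processing notes, the authors used cutadapt 1.12 for trimming, STAR 2.5.2b for alignment (GRCm38), HTSeq 0.7.2 for counting and DESeq2 1.12.4 for their own comparison. The release of the annotation and the counting mode: not given in the sources used here. Libraries were of polyadenylated RNA without strand information, so reads of a gene and of an overlapping antisense gene are not separable. The authors deposited raw counts for 40914 of 47729 rows, with a mark in place of counts in the other 6815. Because of these other entries the columns do not count as pure counts here, and edgeR and DESeq2 were not run. The deposited table also holds 6 columns of the authors' normalized counts and their fold changes and p-values, none of which was used. *Akita* columns are numbered 4 to 6 and the sample labels 1 to 3, so columns were matched to a genotype only.

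The filter on low counts asked for the CPM of 10 counts in the median library in at least 3 libraries and for a sum of at least 15, and left 15407 genes. TMM factors, which trimmed 30% of log ratios and 5% of mean levels, were 1.09, 1.03 and 1.01 for AK4, AK5 and AK6 and 0.989, 0.953 and 0.937 for WT1, WT2 and WT3. The limma-voom fit (limma 3.58.1, R 4.3.3) used a pseudocount of 0.5, no covariate and Benjamini-Hochberg adjustment over all genes. It was also run on simulated counts, which had the same spread setting for all genes and no cell mixture that varied between pools. That run therefore does not show how the fit behaves on these libraries. Tables were handled with Python 3.11.15 and pandas 2.3.3. Exon lengths came from GENCODE for GRCm38, where 5 members had other coordinates than in the table, and promoters from RefSeq. The members and lists were chosen with earlier results of these data known. Named members were *Cdh8*, any with an adjusted p under 0.05, the 10 highest per kilobase, the 5 largest log2 fold changes in each direction and those nearest the threshold; *Cdh4*, *Cdh7* and the others given with values were added after theirs were seen. Of the other lists, genes with an adjusted p under 0.05 were named. Alternatives were other scalings, filters and thresholds, limma-trend, weights per library, an acinar covariate and each library left out.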

Additional observations from a re-analysis of the deposited data

How the results depend on the processing

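The count of members other than *Cdh8* that passed was 0 by limma-voom. It became 1 (*Cdh4*, higher) with upper quartile factors, with library totals alone and with at least 10 counts in every library, 2 (*Cdh4* higher, *Pcdhb22* lower) with weights per library, 1 (*Pcdhb22*) with the acinar score as a covariate and 3 (*Cdh4*, *Pcdhb22* and *Cdh7*) at an adjusted p threshold of 0.1. It stayed 0 with relative log expression factors, without a filter, with limma-trend and without each library in turn. The log2 fold change of *Cdh8* ranged from -1.52 to -1.38 without a library in turn and from -1.50 to -1.32 under the other settings. Of the genes of the other lists 3 passed, 5 at an adjusted p threshold of 0.1, and 0 to 5 without a library in turn (1 without WT1 or AK5, 0 without WT2, WT3 or AK6, 5 without AK4). Over all genes 249 passed, 571 with library totals alone and 521 with weights per library, and 0 to 584 without a library in turn, with fewer samples in each fit. Small log2 fold changes turned sign, that of *Pcdh1* to 0.054 and that of *Pcdhb17* to 0.0445 with library totals, and that of *Pcdhgc3* to -0.0069 with the acinar covariate. Without a library in turn *Pcdh1* ranged from -0.114 to 0.0041, *Pcdhga6* from -0.025 to 0.188 and *Pcdhgc3* from -0.031 to 0.058; the cause was not tested. With thresholds of 30 and 120 counts there were 74 and 55 members. The edgeR and DESeq2 alternatives were not run. No paired analysis was possible because the columns of the *Akita* libraries carry other numbers than the sample labels and share none with the WT columns. Members of about 100 counts or fewer, such as *Cdh19*, *Pcdhac2* and *Pcdhb1*, are limited by depth, and members that vary between pools by the number of pools.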
